A study of Mus musculus with 12 samples.

Results

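miR-128, miR-191 and miR-425 were followed through 12 small RNA libraries of the mouse. Their entries were found by miRNA name, whatever the arm, star mark or locus copy number, and made up 257 of 7354 entries. They are 3 of the 324 miRNA names in the lists when arms are ignored. The members were chosen by their deposited values across the cell types and genotypes of these libraries. Their levels and ratios between libraries are therefore descriptions, and none is used as a test of that choice.

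There was 1 library for each of 4 cell types and 3 genotypes, all on a backcrossed C57BL/6 background. DN3 thymocytes, T cell precursors without CD4 or CD8, were sorted from the thymus of mice that were Lck-cre alone (control), Drosha Lck-cre or Dicer Lck-cre. CD4+CD25+ regulatory T cells (Treg) and CD4+ T cells (CD4), called activated in the series title, came by sorting from lymph nodes and spleen of mice that were CD4-cre (control), Drosha CD4-cre or Dicer CD4-cre. Mouse embryonic fibroblasts (MEF) came from E14.5 embryos with Rosa26-CreER, a Cre that an inducer switches on, alone or with Drosha or Dicer. The control libraries thus carried the same Cre as the deleted ones. Lck-cre and CD4-cre act in T lineage cells, while Rosa26-CreER is not limited to one cell type. The age given was 6 to 7 weeks, for MEF as well. Cloned RNA was 19 to 30 nt long and had the end groups, phosphate at 5′ and hydroxyl at 3′, that cutting by RNase III enzymes leaves.

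A miRNA is made in 2 cuts. In the nucleus Drosha frees a hairpin from the primary transcript, and in the cytoplasm Dicer cuts off its loop and leaves a duplex, of which usually one arm is kept in an Argonaute protein. Bases 2 to 8 of the kept arm, the seed, pair with target mRNAs. A miRNA already loaded can outlast the loss of either enzyme. miR-128 is best known as an abundant miRNA of neurons, and miR-191 and miR-425 are made from one cluster in many tissues and are often used as reference miRNAs in PCR panels.

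The mature sequences below, from RefSeq (GRCm38.p6), are the arms whose levels are given, with the seed in capitals. The other arm is left out here because it was rare where listed. The lists mark it with a star for miR-191 and miR-425 and give that of miR-128-2 as a precursor entry.
mmu-miR-128-3p: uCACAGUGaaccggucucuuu
mmu-miR-191-5p: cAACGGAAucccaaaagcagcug
mmu-miR-425-5p: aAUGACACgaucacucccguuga
The 3 seeds differ. Among 1679 mature mouse miRNAs of the RefSeq table, the seed of miR-128 and that of miR-191 occurred in no other miRNA, and the seed of miR-425 was shared with miR-489-3p.

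miR-128 has 2 hairpins that give the same 3′ arm. Mir128-1 lies at chr1:128202361-128202430 on the plus strand, within an intron of R3hdm1. Mir128-2 lies at chr9:112118636-112118711 on the minus strand, within an intron of Arpp21, a gene known for its expression in brain and thymus. Their RefSeq hairpins are shown because the base after the mature arm tells them apart. Capitals mark both mature arms.
Mir128-1: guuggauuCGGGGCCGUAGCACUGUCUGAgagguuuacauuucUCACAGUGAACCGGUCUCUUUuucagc
Mir128-2: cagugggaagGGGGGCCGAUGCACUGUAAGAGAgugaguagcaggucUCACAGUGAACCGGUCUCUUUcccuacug
Mir191, at chr9:108568319-108568392, and Mir425, at chr9:108568777-108568861, lie on the plus strand 384 bases apart. In the GENCODE vM21 annotation of the same assembly both hairpins overlap an exon of the noncoding gene 4833445I07Rik, with Dalrd3 just downstream.

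The deposited values are relative to the library: they add up to about 1000000, and shares are given as percent of that listed total. A miRNA not listed was below the lowest value of its list, which was 10 per sequence in DN3 and Treg, 20, 526 and 645 in CD4 control, Drosha and Dicer, and 11, 13 and 11 in MEF. The low values of the CD4 and MEF lists step by what 1 read is worth. This gave about 100000, 7600 and 6200 reads for CD4 control, Drosha and Dicer, and 274700, 77400 and 270200 for MEF. In CD4 Dicer only 58.1% of the low values fell on whole reads, so that depth is uncertain. For DN3 and Treg no depth could be read from the values. The extent of the Drosha and Dicer deletions was not measured by these lists. Markers split the libraries as the labels do: 7 T lymphocyte miRNAs summed to between 5.52% and 21.01% of the listed total in the 9 T lineage libraries and between 0.775% and 0.973% in MEF. The 6 fibroblast miRNAs summed to between 4.62% and 14.3% in MEF and to at most 0.0459% elsewhere.

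miR-128 was highest in the DN3 thymocyte libraries. It stood at 33075 in DN3 control, 37180 in DN3 Drosha and 39830 in DN3 Dicer, which is 3.33%, 3.74% and 4.01% of the listed miRNA. That made it the 8th, 5th and 6th most abundant name of its library. In Treg it stood at 935 in control, 4471 in Drosha and 794 in Dicer, and ranked 59th, 30th and 58th. In CD4 cells it stood at 480 in control, from 48 implied reads, and at 1316 in Drosha, from 10 reads. In CD4 Dicer it was not listed, so it lay below 645, a limit that does not separate it from the CD4 control level. In MEF it stood at 80, 90 and 74 in control, Drosha and Dicer, from 22, 7 and 20 reads.

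From high to low, the control levels of miR-128 ran in the order DN3, Treg, CD4 and MEF. The DN3 control value was 35.4 times that of Treg control, 68.9 times that of CD4 control and 416 times that of MEF control, the last computed as shares of the listed miRNA. Counting error of the MEF reads alone (95% exact interval) leaves a range of 275 to 663 for it. All 3 DN3 libraries lay above all others for miR-128, with the next highest, Treg Drosha, at 4471. The same held for miR-181a, with at least 98040 in DN3 and at most 59531 elsewhere. That miRNA was also the nearest to miR-128 in pattern over these libraries, so it is not a separate comparison. How many of all miRNAs separate DN3 in this way was not computed. Treg control and CD4 control were the nearest neighbours in the order of miR-128 levels. With 1 library each and unknown Treg depth, their order was not tested. DN3 and Treg were deposited in another format than CD4 and MEF, which may add to differences between those pairs of cell types. Among the reference miRNAs, miR-16 had 136868 and 114923 in DN3 and Treg control but 540 and 193 in CD4 and MEF control. miR-103 had no such gap, with 12043, 5392, 11110 and 3327 in the same order. Format and cell type cannot be told apart in the miR-128 differences between those pairs, and a part due to format was not tested.

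miR-191 was abundant in every T lineage library. It stood at 17203, 31807 and 22362 in DN3 control, Drosha and Dicer. In Treg the values were 18027, 15201 and 18721. In CD4 they were 36150, 12105 and 26290, from 3615, 92 and 163 reads. It ranked between 6th and 16th in all 9 T lineage libraries. The MEF values of 1844, 1253 and 1570, from 507, 97 and 424 reads, placed it between 48th and 51st. The lowest T lineage value, 12105 in CD4 Drosha with a 95% exact interval of 9769 to 14826, lay above the highest MEF value.

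miR-425 followed miR-191 at a lower level. It stood at 2888, 4651 and 3396 in DN3 control, Drosha and Dicer, and at 2535, 1836 and 2079 in Treg. In CD4 it stood at 6660, 1842 and 4194, from 666, 14 and 26 reads. In MEF it stood at 553, 413 and 533, from 152, 32 and 144 reads. The T lineage values, between 1836 and 6660, again did not overlap the MEF values. This is not particular to the members: miR-142-3p had at least 3854 in the T lineage libraries and at most 153 in MEF. For miR-181a the values did overlap, with 3130 in CD4 control and 7844 in MEF control. The share of all miRNAs that separate in this way was not computed. The CD4 Drosha value of miR-425 rests on 14 reads, with a 95% exact interval of 1007 to 3089. As shares of the listed miRNA, CD4 control exceeded MEF control 19.6-fold for miR-191 (17.9 to 21.4) and 12.03-fold for miR-425 (10.3 to 14.2), where the ranges cover counting error in MEF. CD4 control was 2.10 times DN3 control for miR-191 and 2.31 times for miR-425, while DN3 and Treg control lay close, with a DN3 to Treg ratio of 0.954 for miR-191 and 1.14 for miR-425.

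**Figure D1:**
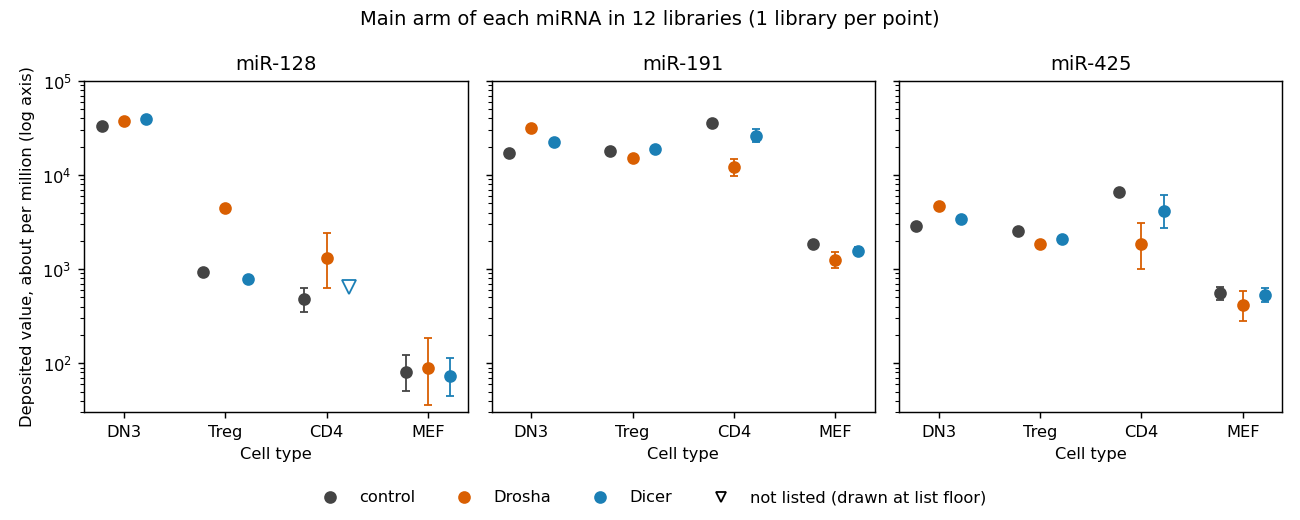
Deposited value of the main arm (log axis) by cell type, 1 panel for each miRNA and 1 point for each library, coloured by genotype; bars in CD4 and MEF are 95% exact counting intervals, and the open triangle marks the list floor where miR-128 was not listed. miR-128 spans from 74 in MEF Dicer to 39830 in DN3 Dicer, while miR-191 and miR-425 differ mainly between the T lineage libraries and MEF.

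The ratio of the cluster partners was higher in every T lineage library than in MEF. miR-191 exceeded miR-425 by 5.96, 6.84 and 6.58 times in DN3 control, Drosha and Dicer and by 7.11, 8.28 and 9.005 times in Treg. In CD4 the ratios were 5.43 (95% exact interval 4.996 to 5.90), 6.57 (3.72 to 12.5) and 6.27 (4.13 to 9.88). In MEF they were 3.33 (2.78 to 4.03), 3.03 (2.01 to 4.67) and 2.95 (2.43 to 3.58). The ratio does not depend on the library total. All 9 T lineage ratios, with a median of 6.58, lay above the 3 MEF ratios. The closest pair was 5.43 in CD4 control and 3.33 in MEF control, whose intervals, if the CD4 control depth holds, do not overlap. With fewer reads they do: that of CD4 Drosha overlaps those of MEF control and MEF Drosha, and that of CD4 Dicer overlaps that of MEF Drosha. CD4 and MEF share a file format. Control had the lowest ratio of its cell type in DN3, Treg and CD4 and the highest in MEF, but in CD4 and MEF the intervals of the genotypes overlap.

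**Figure D2:**
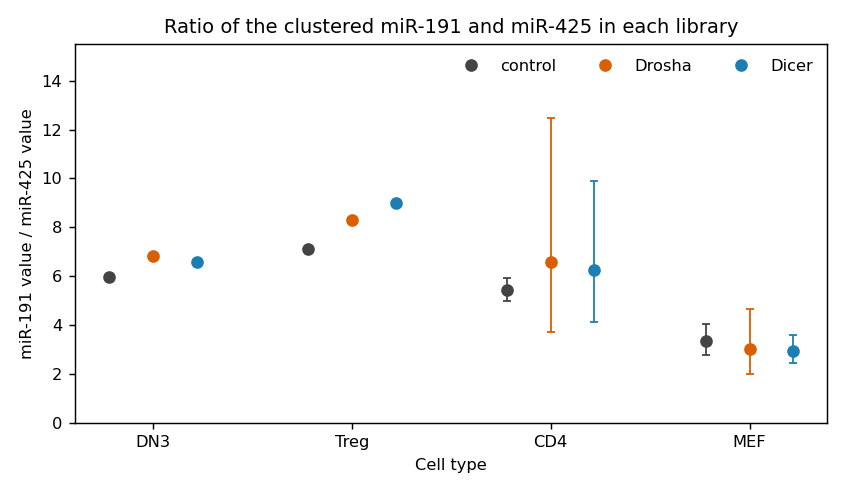
Ratio of the miR-191 value to the miR-425 value in each library (linear axis from 0), by cell type and coloured by genotype; bars are 95% exact counting intervals where reads could be implied. The T lineage libraries run from 5.43 to 9.005 and the MEF libraries from 2.95 to 3.33.

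miR-191 and miR-425 were almost entirely their main arm. miR-191* was listed at 38, 21 and 21 in DN3 control, Drosha and Dicer, at 33, 25 and 12 in Treg, at 110 in CD4 control, and at 36 and 22 in MEF control and Dicer. Where both arms were listed, in 9 libraries, the main arm exceeded it between 51.2-fold and 1560-fold, with a median of 546-fold. miR-425* was listed at 60, 25 and 83 in DN3, 48, 29 and 28 in Treg, 90 in CD4 control, and 26 and 11 in MEF Drosha and Dicer. Its main arm exceeded it between 15.9-fold and 186-fold, with a median of 52.8-fold over 9 libraries. The low ends of both ranges come from MEF, where few star reads were implied. They were 10 and 6 for miR-191* in control and Dicer, and 2 and 3 for miR-425* in Drosha and Dicer. The 5′ arm of miR-128-2 was listed as a precursor entry in DN3 alone, at 15 in control and 28 in Drosha. Precursor entries were read in the DN3 and Treg lists only, so the other arm of miR-128 is not known in CD4 and MEF. The star values of DN3 and Treg lie close to the floor of 10 per sequence, so arm sequences below it are missing from these sums.

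Which other miRNAs had the most similar pattern was asked over the libraries that listed a member, by the correlation of log2 values. The points share libraries and the fixed total, and libraries of one cell type are not independent points. For miR-128, over 11 libraries and 53 candidates, the nearest were miR-181a (r = 0.92, rho = 0.89), a miRNA high in immature thymocytes, miR-30e (r = 0.91, rho = 0.83) and miR-181b (r = 0.86, rho = 0.80). The median r of all candidates was 0.48. For miR-191, over 12 libraries and 50 candidates, miR-425 was nearest (r = 0.98, rho = 0.97), ahead of miR-142-3p (r = 0.95, rho = 0.72) and miR-155 (r = 0.94, rho = 0.62), miRNAs of blood cells. For miR-425 the order after miR-191 was also miR-142-3p (r = 0.90, rho = 0.65) and miR-155 (r = 0.87, rho = 0.52).

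The Drosha and control libraries of a cell type were then compared, to ask how each miRNA stood when the first cut was lost. Because values are relative, each log2 ratio is given relative to that of the median miRNA, and 1 log2 unit or more away from it is counted as apart. With 1 library on each side this has no replicate check. The median itself had a log2 ratio of -0.38 (DN3), -0.13 (Treg), -1.20 (CD4) and -0.95 (MEF). Most of the miRNAs compared thus had a lower value in the Drosha library in every cell type, by more in CD4 and MEF. Of the 12 member ratios, 5 were 1 unit or more higher than the median and 0 lower. Relative to the library total, 2 were 1 unit or more higher (miR-128 in Treg and CD4, at 2.26 and 1.45) and 2 lower (miR-191 and miR-425 in CD4, at -1.58 and -1.85). Over all miRNAs compared, 38.7% were apart in either direction (DN3), 32.2% (Treg), 66.2% (CD4) and 36.6% (MEF), so 5 of 12 is near the background.

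miR-128 was higher relative to the median in all 4 Drosha libraries, by 0.55 (DN3), 2.39 (Treg), 2.66 (CD4) and 1.12 (MEF). The DN3 values, 33075 and 37180, differed by little. In Treg the value went from 935 to 4471, a ratio of 4.78, and placed miR-128 19th from the top of 171 miRNAs, where 21.1% lay 1 unit or more above the median. In CD4 the ratio was 2.74 (95% exact interval 1.24 to 5.49), and 40.0% of 80 miRNAs lay 1 unit or more above the median. miR-128 could be listed in CD4 Drosha only from 526 upward, above its control value of 480, so a lower value there would not have been seen. In MEF, where 20.7% lay that far above, the values 80 and 90 gave a ratio of 1.13 (0.407 to 2.74), so no difference in miR-128 itself was detectable at 22 and 7 reads.

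Other miRNAs stood apart in the same Treg Drosha library. miR-181a, the nearest to miR-128 in pattern, was at 13227, 59531 and 11488 in Treg control, Drosha and Dicer, and at 3130, 21579 and 10656 in CD4. Because that pattern was taken over libraries that include these, the values of miR-181a are not a separate observation. miR-181b, the third nearest, did not share the high Treg Drosha value, with 638, 591 and 365 in Treg, and had 310, 1053 and 656 in CD4. The T lymphocyte list as a whole had 1 of 9 arms 1 unit or more higher and 2 lower in Treg Drosha against control, with a median of -0.23. Erythroid miRNAs (miR-451, miR-144 and miR-486) summed to 1198, 8533 and 991 in Treg control, Drosha and Dicer, with 3 of 3 listed in control and Drosha and all 3 more than 1 unit above the median in the Drosha to control ratio. In CD4 these miRNAs summed to 50 in control and were not listed in Drosha or Dicer, and in DN3 they summed to 5522, 4473 and 8806. The myeloid miR-223 was at 24, 588 and 746 in Treg. Fibroblast miRNAs summed to 10, 100 and 26 there. The part of RNA from other cells in the miR-128 values was not tested. In bulk libraries more cells of a type and more RNA per cell cannot be told apart.

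miR-191 and miR-425 were 1 unit or more from the median in DN3 and in no other cell type, and the DN3 Drosha values were above the control ones. miR-191 went from 17203 to 31807, 1.27 above the median and 12th of 168 miRNAs, and miR-425 from 2888 to 4651, 1.07 above it. In DN3, 16.7% of miRNAs were 1 unit or more higher, among them 5 of the 11 reference miRNA arms compared (a list that includes miR-191 and miR-425), which had a median of 0.23. Relative to the library total the same ratios were 0.89 and 0.69. In Treg both lay near the median, at -0.11 and -0.33. In CD4 the Drosha values were lower than control, with a ratio of 0.335 (0.269 to 0.412) for miR-191 and 0.277 (0.150 to 0.467) for miR-425, but so were those of most miRNAs, which left them at -0.37 and -0.65. In MEF the ratios of 0.680 (0.541 to 0.845) and 0.747 (0.494 to 1.10) lay 0.39 and 0.53 above the median miRNA. The interval for miR-425 in MEF includes 1.

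The Dicer libraries stayed near their controls for all members that could be compared. Of 11 ratios, relative to the median miRNA, 0 were 1 unit or more away. Over all miRNAs 7.65% were that far (DN3), 15.1% (Treg), 71.3% (CD4) and 4.26% (MEF), so few miRNAs were that far outside CD4. miR-128 lay at 0.24 in DN3, -0.11 in Treg and 0.08 in MEF. miR-191 lay at 0.35, 0.18, -0.39 and -0.04 in DN3, Treg, CD4 and MEF, and miR-425 at 0.21, -0.16, -0.60 and 0.14. In CD4 the ratio of Dicer to control was 0.727 (0.618 to 0.851) for miR-191 and 0.630 (0.408 to 0.931) for miR-425, from 163 and 26 reads in the Dicer library, whose depth is uncertain. The direction depends on the scaling: as shares of the 51 miRNAs listed in all libraries, miR-191 was 1.51 times and miR-425 1.31 times as high in CD4 Dicer as in CD4 control.

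Between the deletions, the Dicer and Drosha libraries shared their reference points with the comparisons above. miR-128 in Treg, at 794 in Dicer and 4471 in Drosha, lay at -2.48 relative to the median miRNA, with a ratio of 0.178. It was the 1 of 11 member ratios that was 1 unit or more away. Background shares were 41.2% (DN3), 15.6% (Treg), 29.6% (CD4) and 38.9% (MEF). In DN3 miR-191 and miR-425 lay at -0.93 and -0.88, and in MEF miR-128 lay at -0.93, all just inside 1 unit.

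**Figure D3:**
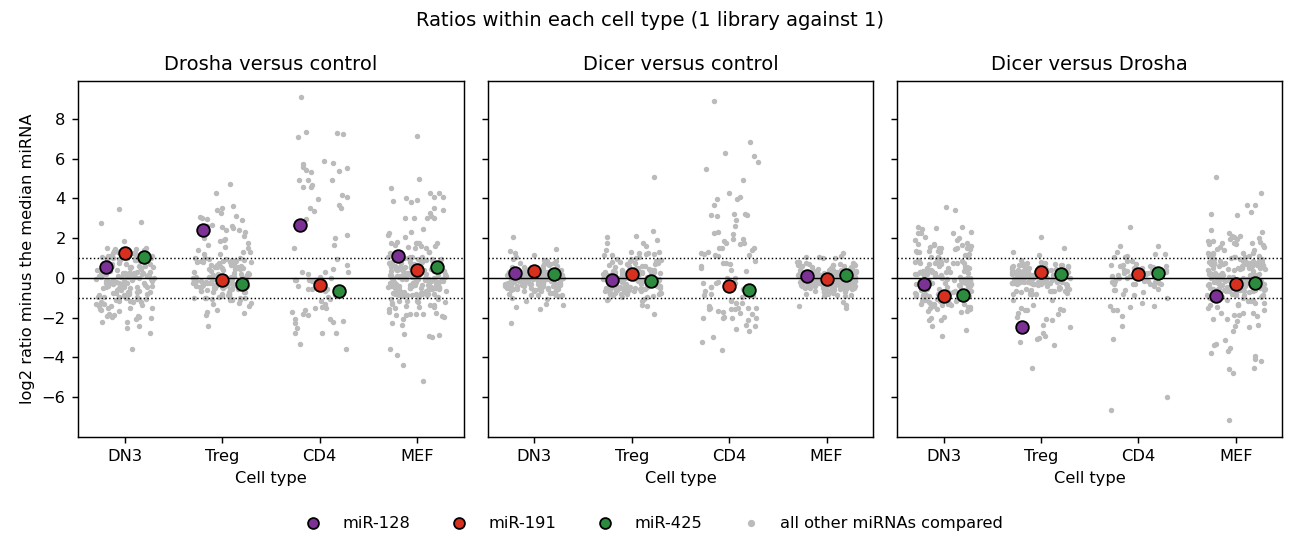
Log2 ratio of 2 libraries minus that of the median miRNA, by cell type, in 1 panel for each comparison; grey points are all other miRNAs compared, coloured points the members, and dotted lines mark 1 unit. miR-128 lies 2.39 above the median in Treg Drosha against control, while all members lie within 0.60 of it for Dicer against control.

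A fit over cell types asked whether a miRNA differed between genotypes in the same direction across them. limma, run on log2(value + 1) of 185 miRNAs and blocked by cell type, called 0 (0%) for Drosha versus control, 0 (0%) for Dicer versus control and 1 (0.541%) for Dicer versus Drosha at an adjusted p of 0.05, and no member. At an unadjusted p under 0.05 the counts were 37, 4 and 21. For Drosha versus control the estimate (log2, ± SE) was 0.86 ± 0.58 for miR-128, over the 3 cell types that listed it throughout, and without Treg it was 0.17 ± 0.54. For miR-191 it was -0.37 ± 0.40 and for miR-425 -0.51 ± 0.40, over 4 cell types. The median miRNA had -0.52 in this comparison. Under median-of-ratios scaling, which moved it to -0.21, miR-191 had 0.27 ± 0.29 and miR-425 0.13 ± 0.28, so their signs depend on the scaling. Leaving out CD4 gave 0.03 ± 0.38 and -0.07 ± 0.36, and leaving out DN3 gave -0.79 ± 0.55 and -0.91 ± 0.56. For Dicer versus control the estimates were -0.03 ± 0.58 for miR-128, -0.06 ± 0.40 for miR-191 and -0.19 ± 0.40 for miR-425, against -0.09 for the median miRNA, and positive under the other scaling. For Dicer versus Drosha they were -0.89 ± 0.58, 0.31 ± 0.40 and 0.32 ± 0.40, with the median miRNA at 0.40. Without Treg the estimate of miR-128 was -0.09 ± 0.54, and without CD4 those of miR-191 and miR-425 were 0.04 ± 0.38 and 0.03 ± 0.36, while without DN3 all 3 were larger, at -1.39 ± 0.84, 0.58 ± 0.55 and 0.58 ± 0.56.

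The DN3 and Treg lists give each sequence on its own, so the ends of the members could be read. All 73 miR-128, 90 miR-191 and 45 miR-425 entries of the main arm, counted over the 6 libraries, matched their hairpins without a mismatch. The 5′ end, which sets the seed, was nearly fixed. The annotated first base began between 99.3% and 100% of the miR-128 value, between 97.4% and 98.3% of the miR-191 value and between 98.4% and 100% of the miR-425 value.

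A minor 5′ form of miR-128 began 1 base early and so carried another seed. It is shown beside miR-27a and miR-27b, whose seed it shares, with capitals for bases 2 to 8. The first line is written as DNA, as deposited.
miR-128 with 1 extra 5′ base: cTCACAGTgaaccggtctcttt
mmu-miR-27a-3p: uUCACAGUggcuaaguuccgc
mmu-miR-27b-3p: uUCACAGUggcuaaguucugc
These forms summed to 97, 95 and 99 in DN3 control, Drosha and Dicer, which is 0.293%, 0.256% and 0.249% of miR-128. None was listed in Treg, where miR-128 was lower and a form of that share would lie below or near the floor of 10. The early form was not the only minor start of miR-128. In DN3 control, Drosha and Dicer, forms that began 2 bases late summed to 92, 76 and 89. Those that began 1 base late summed to 29, 12 and 58. The reverse form, miR-27 with its first base missing and hence the seed of miR-128, was listed in 0 of the 6 libraries. miR-27a and miR-27b forms together had values between 2506 and 7269. At a share like that of the early miR-128 form, the reverse form would also lie below or near the floor of 10. Its absence therefore does not show that it was rarer. For miR-191, forms that began 1 base late held between 1.75% and 2.63% of the value in all 6 libraries, and their seed ACGGAAU belongs to no mature miRNA of the table.

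The 3′ ends varied widely. The forms below led in at least 1 library or told the miR-128 hairpins apart, and capitals mark bases past the annotated 3′ end.
miR-128, 21 nt: tcacagtgaaccggtctcttt
miR-128, 22 nt ending in T: tcacagtgaaccggtctctttT
miR-128, 22 nt ending in C: tcacagtgaaccggtctctttC
miR-191, 22 nt: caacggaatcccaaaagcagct
miR-191, 24 nt: caacggaatcccaaaagcagctgT
miR-425, 23 nt: aatgacacgatcactcccgttga
The 21 nt form of miR-128 led in DN3 control, with 41.4% of miR-128, and in all Treg libraries, with 41.8% in control, 37.0% in Drosha and 45.1% in Dicer. The 22 nt form ending in T led in DN3 Drosha (41.1%) and DN3 Dicer (39.1%). For miR-191 the 22 nt form, 1 base short of the annotated end, led in DN3 control (35.3%), DN3 Dicer (41.8%) and Treg control, Drosha and Dicer (47.8%, 40.5% and 45.0%). DN3 Drosha was the exception: there the 24 nt form led with 33.6%. miR-425 was led in all 6 libraries by its annotated 23 nt form, with 49.0%, 62.1% and 49.2% in DN3 control, Drosha and Dicer and 37.0%, 47.5% and 39.9% in Treg. Other lengths also held 5% or more. The 23 nt miR-191 form had 4207, 8465 and 4655 in DN3 control, Drosha and Dicer and 2904, 3165 and 3893 in Treg, and the 22 nt miR-425 form had 607, 848 and 982 in DN3 and 889, 544 and 759 in Treg. A 25 nt miR-425 form had 456, 568 and 261 in DN3, which is 16.0%, 12.3% and 7.76% of the forms with the annotated start, and the 21 nt form had 276, 156 and 345 in DN3 and 524, 195 and 307 in Treg. For miR-128 the 20 and 23 nt forms had 2765 and 2005 in DN3 control, and a 19 nt form reached 5.66% in Treg Drosha. A 15 nt miR-128 form, shorter than the stated size range, was listed at 196 in DN3 control.

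The base after the annotated end tells the 2 miR-128 hairpins apart. An extra T matches only the Mir128-1 hairpin and an extra C only that of Mir128-2, while shorter forms match both. An extra T can also be a U added after cutting, which these data cannot tell apart from the Mir128-1 base. In DN3 control, forms that match only Mir128-1 summed to 13991, the Mir128-2 form to 1139 and shared forms to 17945. In DN3 Drosha the values were 18844, 1019 and 17317, and in DN3 Dicer 18211, 1188 and 20431. The ratio of the Mir128-1 to the Mir128-2 forms was 12.3, 18.5 and 15.3. In Treg control the 3 classes had 367, 15 and 553, and in Treg Dicer 268, below 10 and 526.

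In Treg Drosha, where miR-128 was higher, the higher value lay outside the Mir128-2 form. The Mir128-1 forms had 1796 and the shared forms 2658, but the Mir128-2 form only 17, against 15 in Treg control. It made up 0.380% of miR-128 in Treg Drosha, compared with 1.60% in Treg control and between 2.74% and 3.44% in DN3. The ratio of Mir128-1 to Mir128-2 forms was 106 in Treg Drosha and 24.5 in Treg control. The values of 15 and 17 lie close to the floor of 10, and each class has 1 library behind it. By length, the 20, 21, 22 (ending in T) and 23 nt forms were all higher in Treg Drosha than in Treg control, at 694, 1653, 1390 and 406 compared with 122, 391, 310 and 57.

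miR-191 had longer 3′ ends in the Drosha libraries. Among forms with the annotated start, 24 nt forms held 24.1% in DN3 control, 34.4% in DN3 Drosha and 19.9% in DN3 Dicer, and 10.1%, 18.3% and 14.5% in Treg. Forms of 20 and 21 nt together held 12.5%, 4.96% and 13.9% in DN3 and 22.4%, 16.0% and 16.9% in Treg. The mean length of miR-191 was 22.52 nt in DN3 control and 22.91 nt in DN3 Drosha, a difference of 0.38 nt, the 4th largest gain among 76 miRNAs with a value of at least 500 in both libraries. Their median difference was 0.10 nt, and 64 of the 76 were longer in Drosha, so a gain as such was general. miR-128 gained 0.14 nt and miR-425 0.10 nt there. In Treg Drosha, miR-191 was 0.34 nt and miR-425 0.39 nt longer than in control, 7th and 6th of 64 miRNAs with a median of 0.07 nt, while miR-128 differed by -0.08 nt. Lengths were compared after seeing the data.

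The Dicer libraries did not share 1 direction. In DN3 Dicer, 73 of 77 miRNAs were shorter than in control, with a median of -0.09 nt. miR-191 differed by -0.15 nt and miR-425 by -0.26 nt there, and miR-128, by 0.02 nt, was among the 4 that were longer. In Treg Dicer 53 of 64 were longer, with a median of 0.11 nt: miR-191 differed by 0.26 nt, miR-425 by 0.20 nt and miR-128 by -0.10 nt. Since most miRNAs differed in one direction within a pair of libraries, a difference between the library preparations and one between genotypes cannot be told apart.

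**Figure D4:**
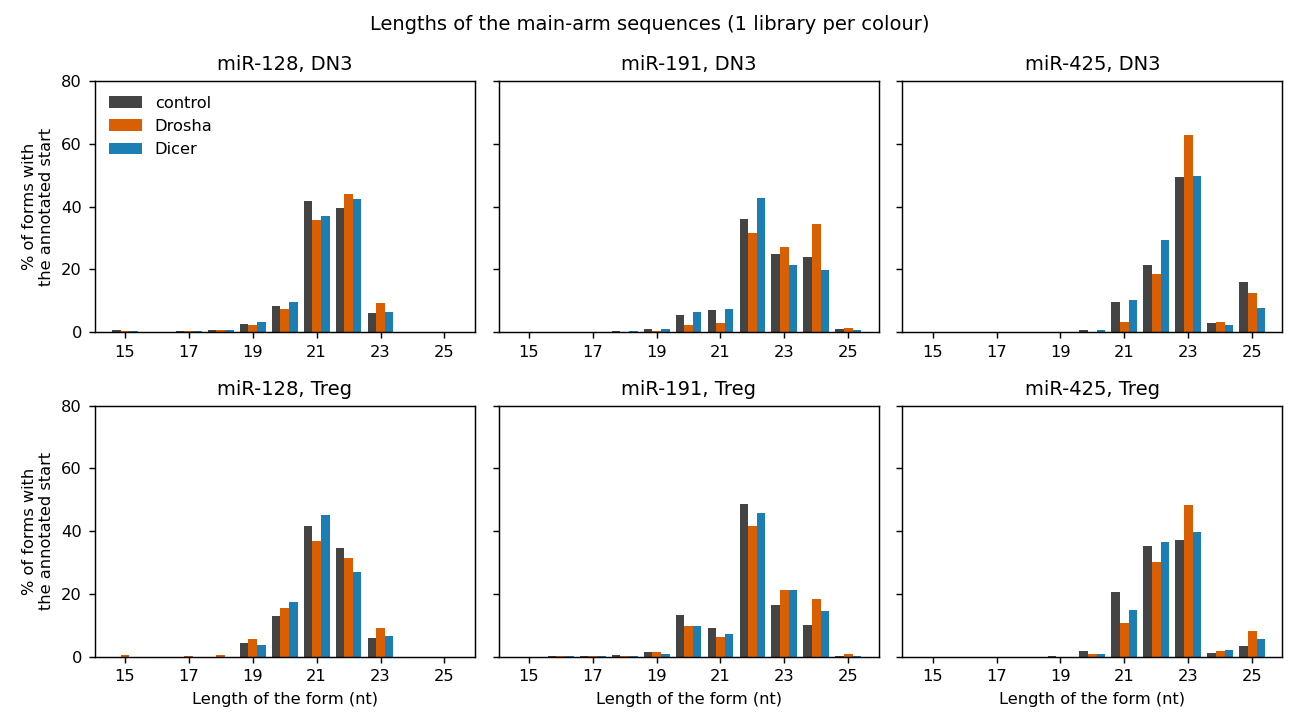
Share of main-arm forms with the annotated 5′ start by length in nt, for DN3 (top row) and Treg (bottom row). Percent is of the member's summed value over forms with that start. There is 1 bar colour for each genotype and 1 library behind each. For miR-191 the 24 nt bar is the highest of DN3 Drosha (34.4%), while the 22 nt bar is the highest in the other libraries.

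**Figure D5:**
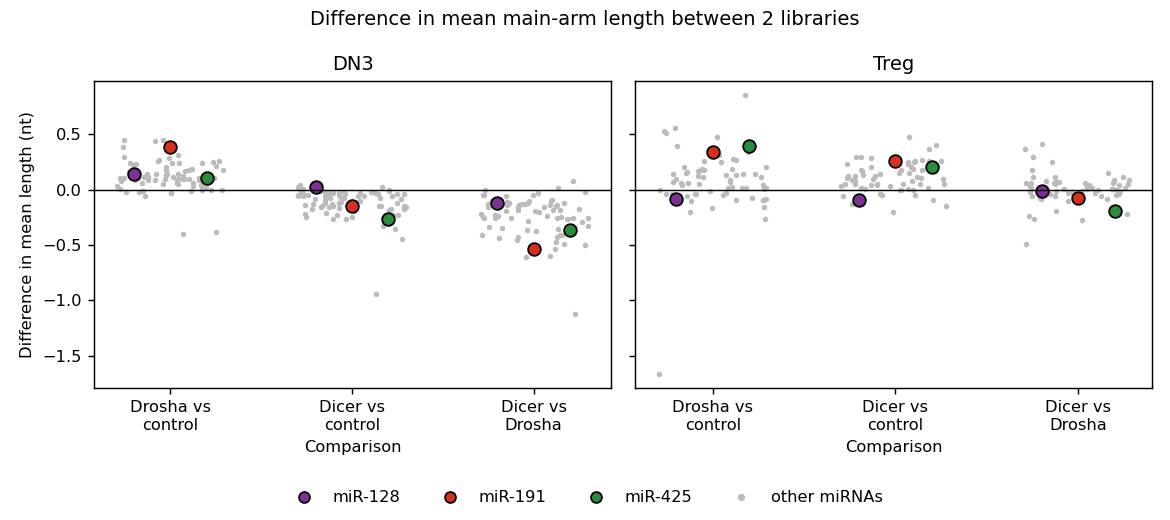
Difference in mean length of main-arm forms (nt) between 2 libraries, with DN3 on the left and Treg on the right; grey points are other miRNAs with a value of at least 500 in both libraries, and coloured points are the members. In DN3 most points lie above 0 for Drosha against control and below 0 for Dicer against control, with miR-191 at 0.38 nt and -0.15 nt.

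A second list of DN3 control gave small RNA sequences that map within genes, without values, and was searched for R3hdm1 and Arpp21, which hold the miR-128 hairpins, and for 4833445I07Rik and its neighbour Dalrd3. It held 6 sequences in R3hdm1 and 33 in Arpp21. Of those in R3hdm1, 3 were intronic and ended directly before the 5′ arm of miR-128-1, at lengths between 18 and 20 nt. In Arpp21, 12 reached into the Mir128-2 hairpin, between 20 and 28 nt long: 9 ended directly before the 5′ arm of miR-128-2, and 3 ended 1 base further upstream. One of each is shown because its 3′ end meets the annotated start of the 5′ arm, the side of the hairpin where Drosha cuts. Capitals mark bases within the RefSeq hairpin.
R3hdm1, 19 nt: cttcctgagctGTTGGATT
Arpp21, 22 nt: gcagccactgtgCAGTGGGAAG
Of all 54267 sequences in the list, 3 ended in the 8 hairpin bases of the first, all in R3hdm1, and 10 ended in the 10 hairpin bases of the second, 9 of them in Arpp21. 4833445I07Rik had 0 sequences under that name. Dalrd3 had 3 sequences, none of which reached the Mir191 or Mir425 hairpin. The list has no read numbers and covers 1 library, so it says neither how abundant these flanks were nor how they stood in the deleted cells.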

How the data were processed

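Small RNAs of 12 libraries (1 per cell type and genotype) were analysed; groups came from the sample titles. Adaptors were clipped and reads mapped to miRNA loci by the authors, per the labels' protocols. The deposited values are treated as a score: whole numbers, normalised by the authors per most file headers. Not given in the sources used here: aligner, miRBase release, genome build. Guide and passenger entries were summed per name, giving 430 names with arms. 0 per-sample columns were left unused. Ratios within a cell type used a pseudocount of 0.5 and the miRNAs present in both lists whose values summed to 50 or more. Across cell types, limma 3.58.1 (R 4.3.3) was fitted to log2(value + 1) for 185 miRNAs listed at 10 or more in all 3 libraries of at least 2 cell types, with Benjamini-Hochberg adjustment and a threshold of 0.05. The fit was tested on simulated data, with changes larger than any member estimate of the main fit and no shift of whole libraries. That test therefore does not show whether changes of the reported size would be found. The cell types are its replicates, and the labels do not say how many animals a library holds. The 95% intervals are exact (Clopper-Pearson) and hold for counting error alone, since reads had no molecular identifiers. Named were all member arms, the leading form of each member and forms of at least 5% (some by length only), and the 3 miRNAs nearest to each member. Members and lists were chosen with earlier results of these data known. Alternatives were other pseudocounts, scalings and minimum values, floors in place of missing values, single cell types left out, and both arms summed (added after seeing the data).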

Additional observations from a re-analysis of the deposited data

Results flagged for a closer look

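A few member ratios lay on opposite sides of the median miRNA in different cell types. With 1 library for each combination, none of these differences was tested. For Drosha versus control, miR-191 was 1.64 log2 units higher in DN3 (1.27) than in CD4 (-0.37), and miR-425 was 1.72 higher in DN3 (1.07) than in CD4 (-0.65). For Dicer versus Drosha, miR-191 was 1.24 higher in Treg (0.31) than in DN3 (-0.93), and miR-425 was 1.14 higher in CD4 (0.26) than in DN3 (-0.88). The last pair uses the same DN3 Drosha library as the first, and the CD4 Drosha value of miR-425 rests on 14 reads.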

How the results depend on the processing

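For the main results, a count recomputed under an alternative was said to stay if it lay within a fixed fold of the main count. A level, form share or arm ratio was said to stay if it lay within its spread. By these rules 47 values stayed and 13 moved. A count that stayed could still differ: members apart for Drosha versus control were 5 higher and 0 lower, but 2 higher and 2 lower relative to the library total. For single members, where staying meant the same side of the threshold, 339 stayed and 11 moved. No called value changed sign, but the limma estimates of miR-191 and miR-425 for Drosha versus control, which were not called, did under median-of-ratios scaling. Relative to the library total, 2 of 12 ratios changed sign for Drosha versus control, neither of them called (MEF miR-191 from 0.39 to -0.56 and miR-425 from 0.53 to -0.42), 2 of 11 for Dicer versus control (miR-128 and miR-425 in MEF) and 3 of 11 for Dicer versus Drosha (miR-128 in DN3, miR-191 and miR-425 in MEF). The number of members 1 log2 unit or more from the median for Dicer versus Drosha, 1 as reported, was 3 relative to the library total, 2 with floors in place of missing values and 2 with the most abundant sequence alone. In the limma fit, restricting to the 51 miRNAs listed in all 12 libraries gave 7 calls in place of 0 for Drosha versus control and 3 in place of 1 for Dicer versus Drosha, where fewer miRNAs were tested. For Dicer versus Drosha, floors in place of missing values and no filter each gave 0 calls, and leaving out 1 cell type gave 0 to 2 (0 without CD4 or MEF, 2 without Treg). No member was called in any of these. With the total of the 51 shared miRNAs as denominator, CD4 control over MEF control was 15.8-fold for miR-191 and 9.73-fold for miR-425. With sequences of at least 50 only, the median share of miR-425 with the annotated start was 100%. In DN3, miR-425 for Drosha versus control fell just under 1 unit with both arms summed (0.99) or the most abundant arm alone (0.97), and miR-128 in MEF did with a minimum of 10 (0.98) and relative to the library total (0.17). The causes of these shifts were not tested. The reads of CD4 Drosha and CD4 Dicer limit all CD4 comparisons, and miR-128 in CD4 Dicer lay below what its list could show. No fit by replicate number was made, since the labels give none and each group has 1 library; limma compared genotypes within cell types, with cell type as the block.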
